A study of Mus musculus with 3 samples.

Results

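Transcripts of 10 genes for proteins that hepatocytes secrete into the plasma (Alb, Afp, Apoa1, Apoa2, Ttr, Ahsg, Fgb, Hpx, Apoh and Gc) were followed in embryonic mouse hearts. They are 10 of the 28106 genes named on the array, and each was read by 1 of the 41174 gene probes, with the probes of Afp and Apoa1 printed 10 times. The genes were chosen because hepatic transcripts were on average lower in the Cy5 channel of these same arrays while Gc was higher, so the ratios of the 2 channels are given as a description and carry no test. Hearts had been taken at E15.5 (embryonic day 15.5) from C57BL/6 litters of Lrrc10+/- parents. On each of 3 two-colour arrays, RNA pooled from 2 Lrrc10-/- hearts was labelled with Cy5 and RNA pooled from 2 wild-type (Lrrc10+/+) hearts with Cy3, which gave 6 pools and n = 3 per genotype. The wild-type channel also carries a label entry giving a time of sacrifice in months beside its age of E15.5. No array had the dyes exchanged, so dye and genotype cannot be told apart.

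Hepatocytes of the fetal liver make most of the proteins of fetal plasma, and these transcripts are among the most abundant of that cell type. Afp and Alb encode the main fetal and adult plasma albumins, and Gc, their neighbour in the same gene family, encodes the vitamin D binding protein. The visceral endoderm of the yolk sac makes several of the same proteins.

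Lrrc10 itself went against the labels. Its probe had processed signals of 6294, 8521 and 12637 in the Cy5 pools of replicates 1, 2 and 3 and of 281, 237 and 200 in the Cy3 pools, a mean log2 ratio of 4.41 ± 0.40 (SD, n = 3). The pools are therefore named here by their dye, and Lrrc10-/- or wild type stands for the label of that channel. Heart muscle markers such as Tnnt2, Myl2 and Mybpc3 were well above background in all 6 pools for 19 of 19 listed genes. Replicate 3 had the fewest spots well above background (63.9% in Cy5 and 69.3% in Cy3, against 82.4% to 93.2% on the other arrays).

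The probes of Alb and Gc are shown because their readings ran apart. Both lie on chromosome 5 by the mm9 positions in the array files, that of Alb at chr5:90901598-90901657 on the plus strand and that of Gc at chr5:89864029-89864558 on the minus strand. The mapped ends of the Gc probe enclose 530 bases, more than the 60 of its sequence, so its bases are not contiguous in the genome. Gene annotation of mm9 was not used here.
Alb probe: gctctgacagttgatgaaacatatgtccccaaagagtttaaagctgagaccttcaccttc
Gc probe: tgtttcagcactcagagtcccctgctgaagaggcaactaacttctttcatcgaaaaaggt

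Afp, which encodes alpha-fetoprotein, had the widest swing of the 10 genes. Its processed signal (background-subtracted and dye-normalized intensity) was 17950, 487 and 1263 in the Cy5 pools of replicates 1, 2 and 3. In the Cy3 pools it was 9881, 19365 and 609. Both pools of replicate 1 and the Cy3 pool of replicate 2 were thus high, and the Cy5 pool of replicate 2 and both pools of replicate 3 were low, so that the genotypes overlapped. The log2 ratio of Cy5 over Cy3 after loess was 0.82, -5.15 and 0.77, and on replicate 2 the Cy3 pool exceeded the Cy5 pool 39.7-fold in processed signal. That value was the lowest log2 ratio of the 28118 tested probes with a value on replicate 2. It did not come from a single spot, since the 10 spots of the probe lay between -5.31 and -4.93 there (SD 0.11).

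Alb, which encodes serum albumin, was high in the same pools. Over replicates 1, 2 and 3 its Cy5 pools read 2979, 457 and 119 in processed signal and its Cy3 pools 2005, 3781 and 70.2. The log2 ratios were 0.81, -2.74 and 0.17, the second of them rank 5 from the lowest of the probes tested. As for Afp, both pools of replicate 1 and the Cy3 pool of replicate 2 were above the other 3 pools.

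**Figure D1:**
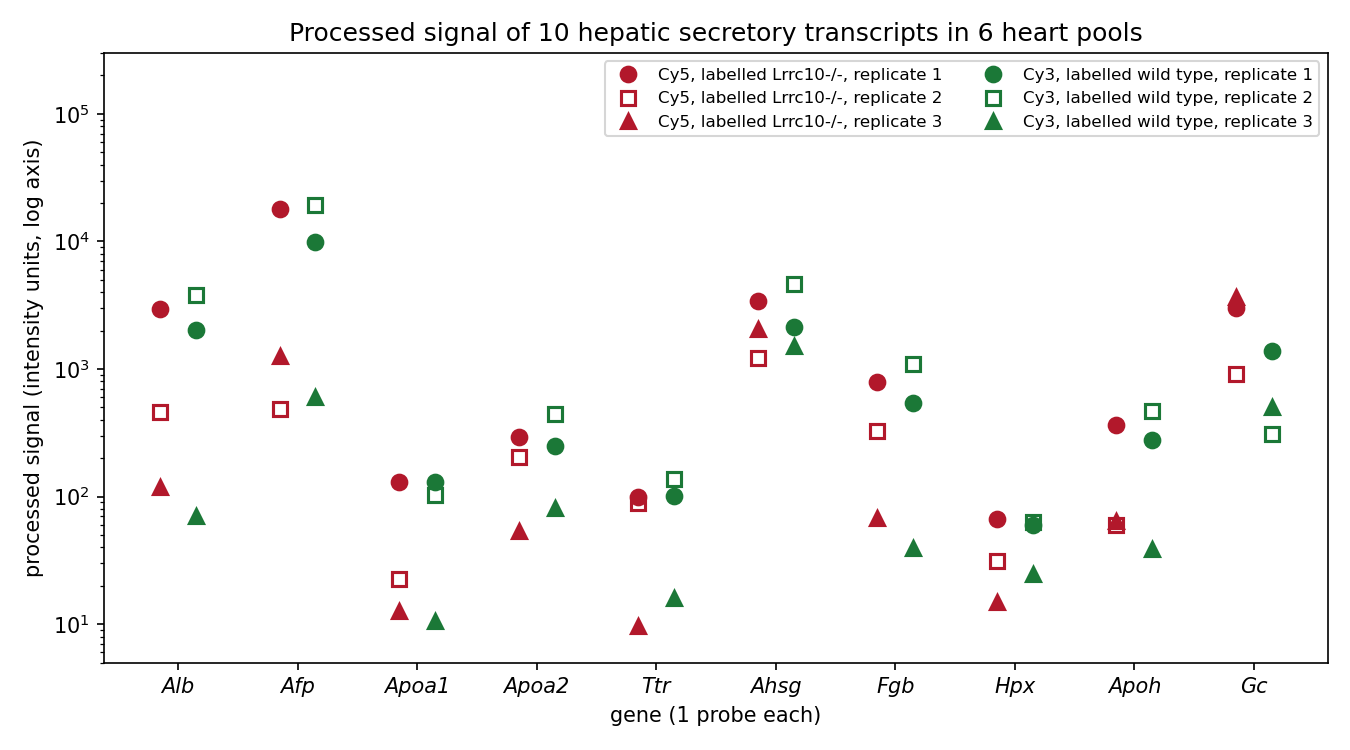
Processed signal of the 10 genes (log axis, intensity units) in the 3 pools labelled Lrrc10-/- (Cy5, red) and the 3 labelled wild type (Cy3, green), with 1 point per pool. For Afp and Alb the open red square (Cy5, replicate 2) lies far below the open green square (Cy3, replicate 2), at 487 against 19365 and 457 against 3781, and for Gc the order of the squares is turned (915 against 311).

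Other carriers and inhibitors of the plasma followed. Ahsg encodes fetuin-A, an inhibitor of mineral deposition, and had processed signals of 3428, 1216 and 2075 in Cy5 and of 2145, 4614 and 1528 in Cy3. Apoh, which encodes the phospholipid-binding beta-2-glycoprotein, gave 361, 60.2 and 64.1 in Cy5 and 280, 467 and 38.6 in Cy3. Fgb, the beta chain of the clotting protein fibrinogen, gave 795, 329 and 68.2 in Cy5 and 541, 1090 and 39.5 in Cy3. In each of the 3 genes the Cy3 pool of replicate 2 was the highest of the Cy3 pools and the Cy5 pool of replicate 1 the highest of the Cy5 pools. Their log2 ratios on replicate 2 were -1.97 for Ahsg, -1.91 for Apoh and -1.35 for Fgb, at ranks 8, 9 and 15 from the lowest, whereas on replicates 1 and 3 they lay between 0.076 and 0.71.

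The apolipoproteins and the dimmest members had smaller ratios. Apoa2, a protein of high-density lipoprotein, had processed signals of 293, 204 and 53.5 in Cy5 and of 250, 447 and 81.8 in Cy3, and log2 ratios of -0.0035, -0.998 and -0.14. Apoa1, the main protein of the same particle, had log2 ratios of -0.066, -1.13 and 0.0082. Its Cy5 signal on replicate 2 was well above background in 1 of 10 spots, and on replicate 3 it was so in 0 of 10 spots of either channel, so those readings are bounds rather than levels. Ttr, a carrier of thyroid hormone and retinol, gave log2 ratios of -0.17, -0.56 and -0.0086, and Hpx, which binds free heme, gave 0.24, -0.51 and -0.0065. Neither Ttr nor Hpx was well above background in either channel of replicate 3, nor was Hpx in Cy5 on replicate 2. These 3 genes (Apoa1, Ttr and Hpx) did not pass the filter on dim probes, which asks for a signal well above background in 1 channel on all 3 arrays, and 7 of the 10 members did. No member was saturated.

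Gc was the exception. The Cy5 pools of replicates 1, 2 and 3 had processed signals of 2983, 915 and 3701, and the Cy3 pools had 1378, 311 and 500. The Cy5 pool was the higher on each array, with log2 ratios of 1.16, 1.51 and 2.36, although the 3 Cy5 and 3 Cy3 levels still overlapped because the Cy3 pool of replicate 1 exceeded the Cy5 pool of replicate 2. On replicate 2, where Afp was lowest of all tested probes, Gc was at rank 143 from the highest, and it was at ranks 145 and 10 on replicates 1 and 3.

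**Figure D2:**
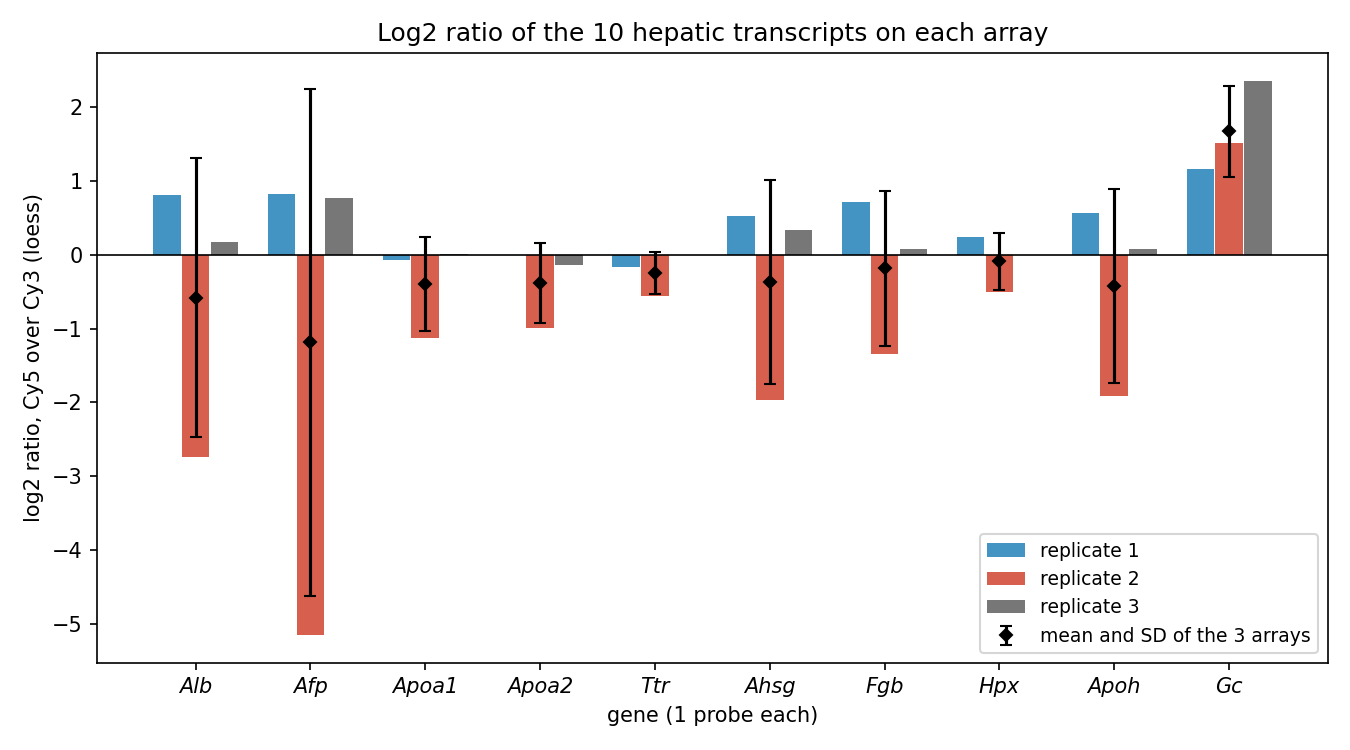
Log2 ratio of Cy5 over Cy3 after loess for the 10 genes on each array (bars), with the mean and SD of the 3 arrays (black). The bars of replicate 2 lie below 0 for 9 of 10 genes and reach -5.15 for Afp, while those of Gc lie above 0 on all 3 arrays.

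Averaged over the 3 arrays, 9 of the 10 genes were below 0 and Gc was above it. The means were -1.19 ± 3.43 for Afp, -0.58 ± 1.89 for Alb, -0.42 ± 1.31 for Apoh, -0.37 ± 1.39 for Ahsg and -0.19 ± 1.05 for Fgb (log2 ratio, SD, n = 3). For the dimmer genes they were -0.40 ± 0.64 for Apoa1, -0.38 ± 0.54 for Apoa2, -0.25 ± 0.28 for Ttr and -0.091 ± 0.38 for Hpx. In these 9 genes the SD exceeded the size of the mean, most narrowly in Ttr, so none of the 9 means was larger than the spread between arrays. Gc had 1.68 ± 0.62. The median of the 10 means was -0.38, against 0.013 over all tested probes, of which 47.4% had a mean below 0. Since the members were chosen on this contrast, nothing is read from these differences.

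The negative median came from replicate 2. Its value over the 10 genes was 0.54 for the first array, -1.24 for replicate 2 and 0.077 for replicate 3, with 3, 9 and 3 genes below 0. Of all tested probes, 51.1%, 44.2% and 50.7% were below 0 on replicates 1, 2 and 3. Without replicate 2 the median turned to 0.36 and 3 genes stayed below 0 (Apoa1 at -0.029, Apoa2 at -0.073 and Ttr at -0.091). Without it the means of Alb and Afp were 0.49 and 0.79. That of Gc was 1.76. Limma called 395 of the 28328 tested probes higher in Cy5 (1.39%) and 1 lower (0.00353%) at a Benjamini-Hochberg adjusted p under 0.05. The count called higher was 2 without replicate 1, 1 without replicate 2 and 1709 without replicate 3, and it was 0 with the processed signals of the scanner software. Among the 7 members tested, Gc was among the probes called higher and 0 were called lower, and since the members were chosen on this contrast nothing is read from that count.

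Levels in single pools were compared on a common scale. This was the log2 signal of each channel after loess and after giving the arrays the same distribution of average log2 intensity per spot. Afp stood at 14.42 in the Cy5 pool of replicate 1, 14.31 in the Cy3 pool of replicate 2 and 13.60 in the Cy3 pool of replicate 1, followed by 10.04 (Cy5, replicate 3), 9.27 (Cy3, replicate 3) and 9.16 (Cy5, replicate 2). The first pair differed by 0.11, and no error between pools of separate arrays can be given for single pools. Within the same dye, Afp was 32.9-fold higher in the Cy3 pool of replicate 2 than in that of replicate 3, and 38.4-fold higher in the Cy5 pool of replicate 1 than in that of replicate 2. In pooled hearts, more cells of a type and more RNA per cell cannot be told apart.

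Alb followed with 11.96, 11.90 and 11.16 in the same 3 high pools and 9.17 (Cy5, replicate 2), 8.08 (Cy5, replicate 3) and 7.91 (Cy3, replicate 3) in the others. Its 2 wild-type pools of replicates 2 and 3 differed 15.9-fold. Over all 10 genes, the highest Cy5 pool was that of replicate 1 in 10 and the highest Cy3 pool that of replicate 2 in 9, the exception being Gc with 10.82, 8.65 and 9.13 in the Cy3 pools. These counts were 9 and 8 with processed signals, in which Gc was highest in Cy5 on replicate 3, and 10 and 7 with quantile normalization. They include Apoa1, Ttr and Hpx, which were not well above background in every pool. The Cy3 pool of replicate 2 exceeded that of replicate 1 by only 0.017 in Apoa1, and that of replicate 3 by 0.11 in Hpx. The share of all tested probes with this order of pools was not counted. Gc had 11.98, 10.16 and 11.49 in the Cy5 pools. The 3 Cy5 and the 3 Cy3 levels overlapped in 10 of 10 genes, and 5.82% of the tested probes with a level in all 6 pools showed no overlap. The spread among pools of one genotype was wide for the bright members, with an SD of 2.82 in Cy5 and 2.73 in Cy3 for Afp, 2.00 and 2.12 for Alb, 1.09 and 1.18 for Fgb, and 0.94 and 1.14 for Gc (log2, n = 3).

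The distance from the lowest to the highest pool was 5.26 for Afp, 4.06 for Alb, 3.33 for Gc, 2.33 for Fgb and 2.11 for Ahsg (log2). Over the tested probes this distance had a median of 0.77 and a 99th percentile of 2.89. The median of the 10 members was 2.05. At the low end, Ttr had 0.57 and Hpx 0.53.

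Outside the 10 members, the 5 genes nearest to Alb in their centred profile over the 6 pools were Ambp, Serpina1d, Serpina6, ATP6 and Me3, with root mean square differences of 0.51, 0.61, 0.95, 0.96 and 0.97 (log2). The first 3 are secreted hepatocyte genes, Ambp encoding the precursor of alpha-1-microglobulin, Serpina1d an alpha-1-antitrypsin whose paralogs a probe may not separate, and Serpina6 the corticosteroid-binding globulin. Ambp had levels of 11.03, 7.99 and 8.25 in the Cy5 pools and 10.34, 11.22 and 7.99 in the Cy3 pools. ATP6 and Me3 encode mitochondrial proteins and had log2 ratios on replicate 2 of 0.058 and -0.31, unlike Alb. They shared with it the low levels of replicate 3.

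Gc lay near other genes. By the same search its 5 nearest were Itpkc, Prr12, C1rl, Kif1c and Acox2, with differences of 0.22, 0.29, 0.31, 0.32 and 0.33, and 0 of the 5 are on a hepatic list. These lists do not hold every gene of the liver, and whether the 5 are made there was not tested. Itpkc, an inositol trisphosphate kinase, had log2 ratios of 0.85, 1.41 and 1.93, against 1.16, 1.51 and 2.36 for Gc. Among the members, Alb was 0.81 from Fgb and 0.88 from Afp, both nearer than Serpina6, ATP6 and Me3, and 2.00 from Gc. The candidates were 6784 tested probes of genes in the RefSeq table, the 10 members left out, with at least 1 log2 unit between their lowest and highest pool.

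**Figure D3:**
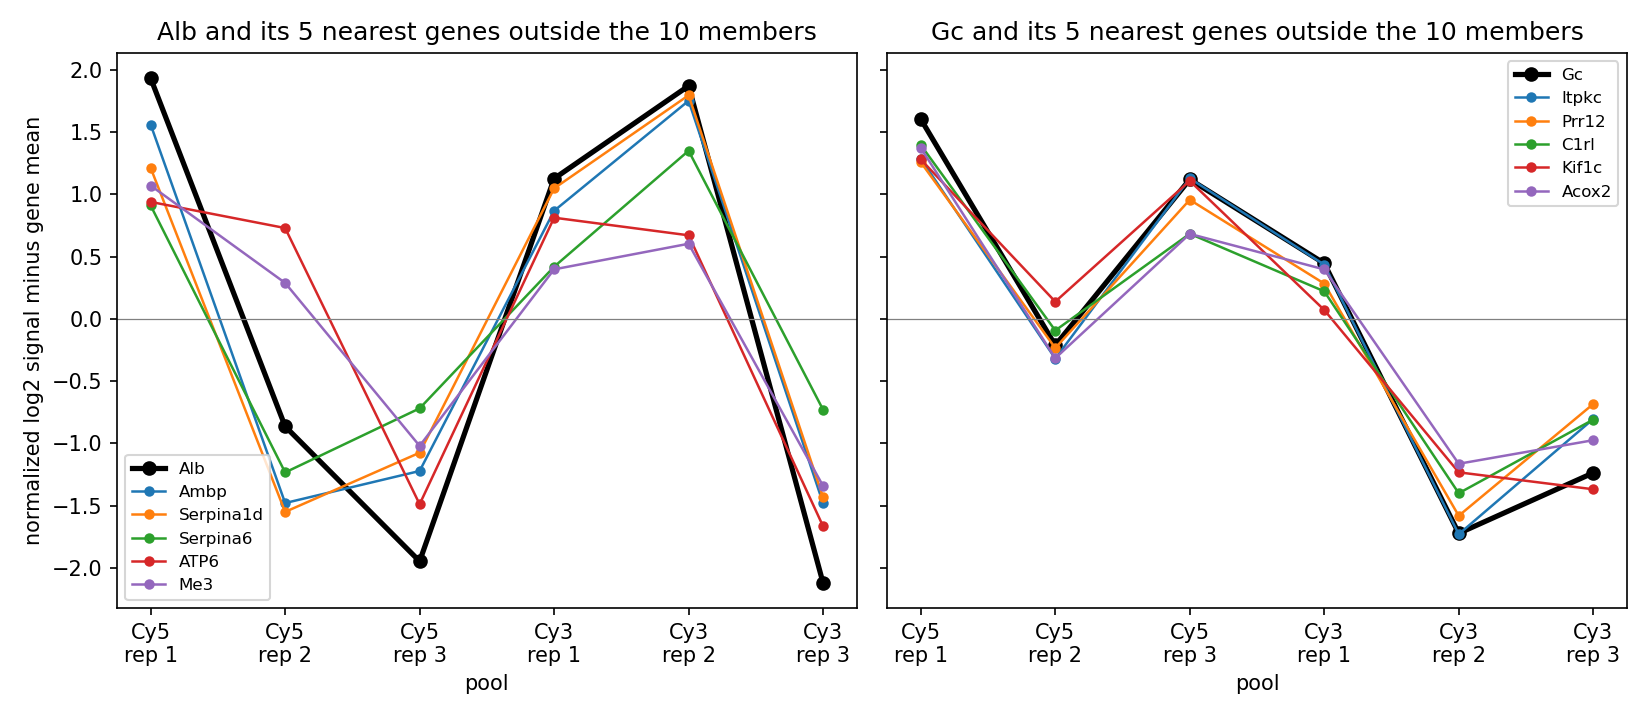
Normalized log2 signal in each of the 6 pools minus the mean of the gene, for Alb (left) and Gc (right) in black and their 5 nearest genes outside the 10 members in colour. Alb is high in Cy5 replicate 1 and in Cy3 replicates 1 and 2, whereas Gc is high in Cy5 replicates 1 and 3 and low in Cy3 replicates 2 and 3.

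The promoters of Alb, Afp and Gc are printed because the first pair were high in the same 3 pools while Gc, on the same chromosome, did not. RefSeq windows of the GRCm38.p6 build covered 9 of the 10 genes (10 windows, 2 of them for Apoa2), and the 250 bases before the start were searched on both strands. Capitals mark GTTAAT, a motif known from promoters of hepatic genes, and TGTTTGC, a core bound by FOXA factors, or their reverse complements.
Gc, chr5:89457899-89458148, minus strand: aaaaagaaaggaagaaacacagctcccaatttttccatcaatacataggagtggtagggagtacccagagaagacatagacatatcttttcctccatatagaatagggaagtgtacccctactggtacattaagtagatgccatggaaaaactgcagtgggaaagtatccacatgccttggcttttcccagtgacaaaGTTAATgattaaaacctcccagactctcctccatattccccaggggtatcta
Alb, chr5:90460620-90460869, plus strand: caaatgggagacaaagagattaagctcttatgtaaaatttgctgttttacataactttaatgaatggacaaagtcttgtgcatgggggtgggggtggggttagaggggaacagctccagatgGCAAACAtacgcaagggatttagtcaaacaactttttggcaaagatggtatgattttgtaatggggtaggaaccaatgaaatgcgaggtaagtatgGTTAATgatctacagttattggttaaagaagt
Afp, chr5:90490464-90490713, plus strand: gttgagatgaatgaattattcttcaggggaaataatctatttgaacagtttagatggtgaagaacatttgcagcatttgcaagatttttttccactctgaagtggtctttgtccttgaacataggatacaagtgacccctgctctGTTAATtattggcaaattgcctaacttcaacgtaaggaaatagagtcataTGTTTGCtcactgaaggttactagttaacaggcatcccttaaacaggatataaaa
GTTAAT was found in 4 of the 10 windows (Alb, Afp, Gc and Fgb), against 6.43% of 32851 windows of all genes. It began 32 bases before the start in Alb, 105 in Afp and 52 in Gc. TGTTTGC was found in 4 windows (Alb, Afp, Apoa1 and Ahsg), against 4.30% of all, and TGTTTAC, another form of the core, in 2 (Apoa2 and Apoh), against 3.17%. CAAAGTCC, a core bound by HNF4, was in 0 of the 10 windows and in 1.2% of all. The Gc window thus held GTTAAT and neither form of the FOXA core. The same was true of the Fgb window, although Fgb was the member nearest to Alb in its profile (0.81). This content was therefore not particular to Gc. These are matches of letters and not evidence of binding.

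Further hepatocyte genes were set beside the members. Of 57 other secreted proteins, 55 were on the array and 34 were tested, with 2 called higher, 0 called lower (against 1.39% and 0.00353% of all tested probes) and a median log2 ratio of -0.067. Of 32 enzymes, transporters and receptors, 19 were tested, with 1 called higher, 0 lower and a median of -0.051. Of 15 hepatic transcription factors, 11 were tested, with 1 called higher, 0 lower and a median of 0.010. The median of all tested probes was 0.013. Without replicate 2 the 3 medians were 0.19, 0.074 and 0.076.

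Replicate 2 was the lowest array for the other secreted proteins as well. They had medians of 0.20, -0.40 and 0.076 on replicates 1, 2 and 3, and 23 of the 34 were below 0 on replicate 2 against 9 and 7 on the others. The enzymes had medians of 0.076, -0.14 and 0.092, and the transcription factors 0.14, -0.056 and 0.035, with 1 of 19 enzymes and 0 of 11 transcription factors at -1 or lower on replicate 2. At -1 or lower, replicate 2 had 24 of all tested probes, of which 13 read genes of the 4 hepatic lists. They were 5 members, 7 other secreted proteins and Fabp1, a fatty acid binding protein. Replicates 1 and 3 had 5 and 189 such probes, and 0 tested genes of these lists were that low there. Probes of genes off the lists were not sorted by tissue. The 4 lists held 71 tested genes, against 28328 probes tested in all. The members were chosen on this contrast and the lists with earlier results known, so nothing is read from the 13.

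The lowest of the other secreted proteins on replicate 2 were Serpina1d (-3.35), Ambp (-3.23) and Fgg (-3.10), the gamma chain of fibrinogen. On replicate 1 the same 3 genes had 0.16, 0.69 and -0.087, and on replicate 3 they had 0.36, 0.26 and 0.081. Serpina6 (-2.58), Rbp4 (-2.06), which carries retinol, F2 (-1.63), which encodes prothrombin, and Serpind1 (-1.20), an inhibitor of thrombin, completed the 7. The genes were named here after their values were seen.

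**Figure D4:**
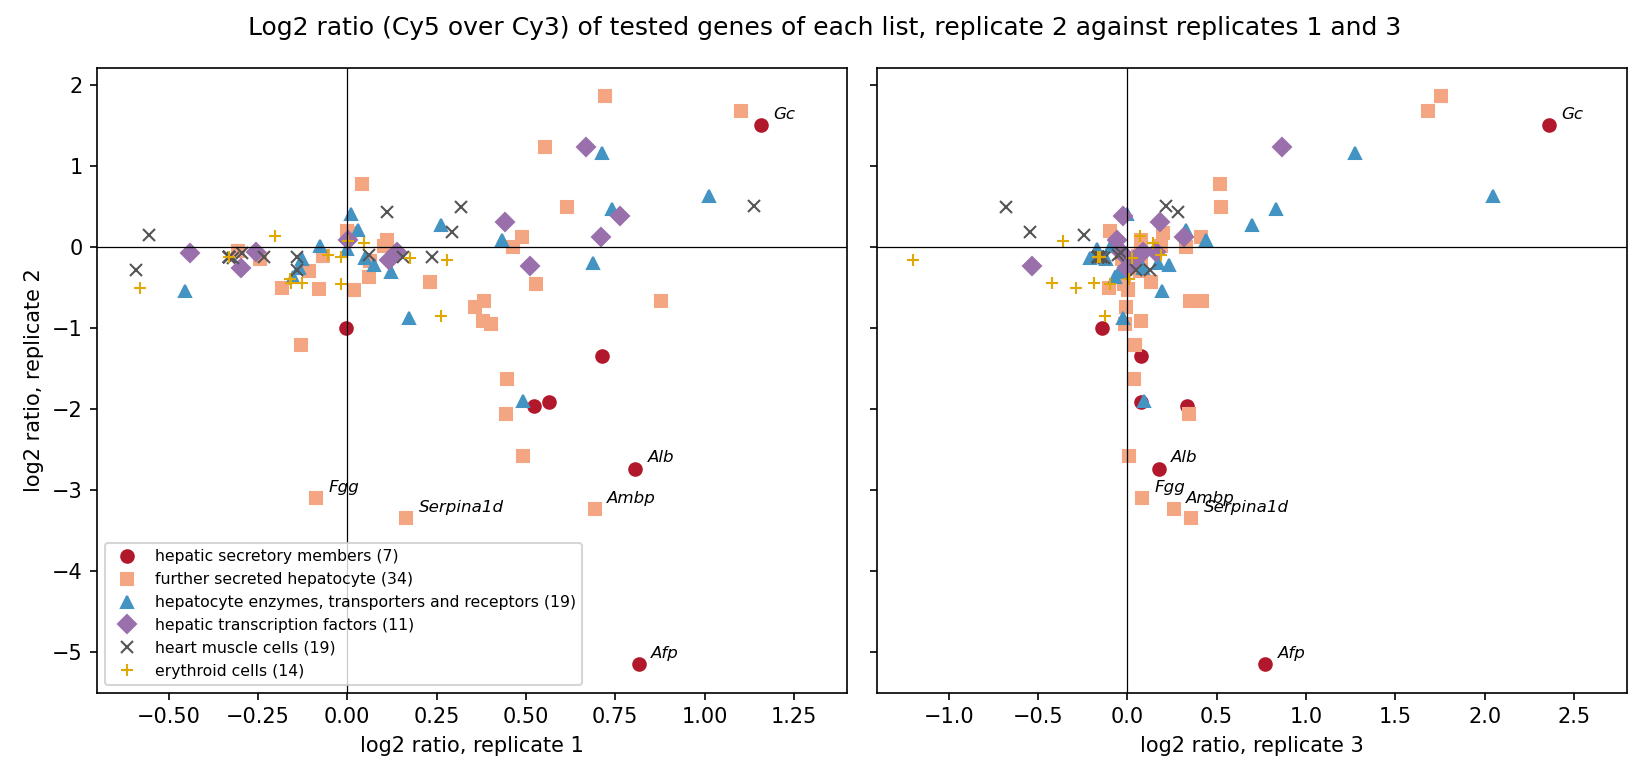
Log2 ratio (Cy5 over Cy3) of the tested genes of 6 lists on replicate 2, against replicate 1 (left) and replicate 3 (right), with 1 point per gene (Cpb2 had no value on replicate 3). Most hepatic points at -1 or lower on replicate 2 lie above 0 on the other arrays, and the heart muscle genes, 10 of 19 of them saturated, and the erythroid genes lie above -1 on replicate 2.

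Other hepatic genes were, like Gc, higher in Cy5 on each array, and they were picked out after their values were seen. Of the 71 tested genes of the 4 hepatic lists, 6 had a log2 ratio of at least 0.5 on all 3 arrays (Gc, F7, Afm, Tat, G6pc and Creb3l3). Gc had been chosen for its higher Cy5 signal. The share of all tested probes that reached this threshold was not counted, so nothing about hepatic genes is read from the 6. F7, which encodes a clotting factor, had 1.10, 1.69 and 1.69, and Afm, which encodes afamin of the albumin family, had 0.72, 1.87 and 1.76. G6pc, the enzyme that releases glucose in the liver, had 0.71, 1.17 and 1.27. The limma adjusted p, over all tested probes, was 0.017 for F7, 0.030 for Afm, 0.024 for G6pc and 0.031 for Creb3l3, a hepatic transcription factor. Tat, tyrosine aminotransferase, had 1.01, 0.63 and 2.05 and was not called. The 4 calls over the 3 further lists came to 0 with the processed signals of the scanner software and without replicate 1 or 2, and to 16 without replicate 3.

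Among the brightest tested genes of each list were F7, Afm and Cpb2 of the secreted proteins, Gamt, G6pc and Tat of the enzymes and Creb3l3 and Prox1 of the transcription factors. Cpb2, a carboxypeptidase of clotting, had 0.55 and 1.24 on replicates 1 and 2, its spot on replicate 3 having been left out for non-uniformity. Gamt had 0.051, -0.14 and -0.21. Prox1, a transcription factor of liver and lymphatic development, had 0.51, -0.23 and -0.53. Neither Gamt nor Prox1 was as low on replicate 2 as Alb or Afp.

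Markers of other tissues gave the following values. Of 18 erythroid genes, whose cells fill the fetal liver and the blood, 14 were tested, with 0 called and medians of -0.036, -0.14 and -0.14 on replicates 1, 2 and 3. Their summed processed signal ranged from 97462 to 178681 in Cy5 and from 120524 to 247948 in Cy3. The brightest, Hbb-b1, was saturated in both channels on 3 arrays and the next, Hba-a1, on 2, so these sums are partly clipped. Of 6 visceral endoderm genes 5 were tested and 0 called, with medians of -0.11, -0.21 and -0.028, and Rhox5, the brightest, had -0.11, 0.27 and 0.83. Of 19 heart muscle genes 19 were tested and 0 called, but 10 of them were saturated in both channels on at least 2 arrays, where the ratio is clipped. The 9 others had medians of 0.060, 0.15 and -0.035 on replicates 1, 2 and 3. Leaving out the saturated heart genes, in none of these 3 lists was a tested gene at -1 or lower on replicate 2, though Hemgn, an erythroid gene outside the list, had -1.68 there.

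For the other tissues taken near the heart, 5 of 12 lung epithelial genes were tested with 0 called, 12 of 14 skeletal muscle genes with 0 called, and 5 of 7 thymic and lymphoid genes with 2 called higher (Cd3g and Dntt, against 1.39% of all tested probes). Their medians on replicate 2 were 0.037, -0.10 and 0.26. The summed processed signal of the 10 members ranged from 3812 to 29084 in the Cy5 pools and from 2918 to 30380 in the Cy3 pools, and none of the 10 was listed at 0. The part of liver or yolk sac tissue in these values was not tested.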

How the data were processed

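The members and gene lists were chosen with earlier results of these data known. RNA of 6 heart pools was read on 3 two-colour Agilent arrays. The authors deposited scanner output (Agilent Feature Extraction 9.1.3.1 for replicate 1 and 10.7.3.1 for replicates 2 and 3, per the file headers, and 9.5 per the submitters' processing notes) holding mean and background intensity, processed intensity after dye normalization (linear and lowess), and a log10 ratio of Cy5 over Cy3, which the deposited series table repeats (largest difference 0).

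Mean intensities were corrected with normexp (offset 50) and loess in limma 3.58.1 under R 4.3.3, with control spots at weight 0 and non-uniform spots left out, and spots of a probe were averaged. Probes well above background on all 3 arrays in at least 1 channel were tested (28328 probes), with lmFit, eBayes and Benjamini-Hochberg adjustment at 0.05, and the fit was tested on simulated data. The offset draws the ratios of dim probes toward 0. Levels per channel were aligned by Aquantile. A gene of a list was read by its brightest tested probe. The named genes were the 10 members, the 3 brightest tested genes of each list and the 5 genes nearest to Alb and to Gc. The value of 1 of the named genes is not reported here. The number of arrays limits the precision, and p-values measure the spread between these 3 arrays. Replicate 1 differed from the others in scanner and software, and the study calls the arrays biological replicates. Alternatives covered background correction, normalization, filters, test, array weights, software version as a block and leaving out each array.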

Additional observations from a re-analysis of the deposited data

How the results depend on the processing

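The count of probes higher in Cy5, 395 as reported, was 0 by the methods' t-test, with scaled ratios, with the series table and with processed signals. It was 1 when background correction was skipped, 1 under a software version block and 145 when the dim filter was dropped, while leaving out 1 replicate gave 1 to 1709. The count of probes called lower (1) was 0 under each of those settings with 3 arrays, 2 under median centring and 11 under arrayWeights, and leaving out 1 replicate gave 0 to 295. Limma's unadjusted p under 0.05 held for 2569 higher and 1208 lower probes. Genes called over the 3 further hepatic lists (4) numbered 0 with the t-test, scaling, the series table, processed signals, the block or uncorrected background, 1 without the dim filter, and 0 (without replicate 1 or 2) to 16 (without replicate 3). The median of the enzyme list turned to 0.19 with processed signals or the series table and to 0.14 when both channels had to be well above background. For the 10 hepatic genes the median lay between -0.52 and -0.20 with 3 arrays, and between -0.60 and 0.36 when 1 replicate was left out, turning without replicate 2. The number of them below 0 (9) was 3 without replicate 2 and 9 without replicate 1 or 3. Fgb turned to 0.039 with the block, and the means of the other members kept their sign under the settings with 3 arrays, Gc between 1.55 and 1.91, Afp between -1.61 and -0.69 and Alb between -0.76 and -0.24. Hpx was -0.53 with processed signals or the series table, beyond its SD from -0.091, and -0.0082 with the block. The median range over the 6 pools (2.05) was 3.71 with processed signals. What caused these shifts was not tested. Signals near background on replicate 3 limit what can be read of Apoa1, Ttr and Hpx there.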
